A study of Mus musculus with 12 samples.

Results

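A set of 44 genes had at least 1 probe set that was at a high level in one pancreatic cancer cell line of the mouse that carries an endogenous mutant p53, and near the background of the array in 3 groups of a p53-null line. In 11 of these genes a further probe set was at 5 or above in at least 1 group of the null line, so the description holds for the probe sets chosen and not for every probe set of the genes. The genes were chosen from 34945 probe sets that name 1 gene symbol each, standing for 18193 genes. A probe set was a member when its mean in the mt-CCs was 8 or above and its mean in each of the other 3 groups was under 5, on the log2 scale of the deposited values, on which a step of 1 is a 2-fold difference. These limits were met by 73 probe sets, of which 13 belong to 6 genes that the choice left out by name (Cxcl12, Fgf7, Ccn3, Gpc4, Tgfbi and Col3a1). The remaining 60 probe sets of 44 genes are 0.172% of the probe sets and 0.242% of the genes. No Y-linked probe set met the limits. Since the levels themselves chose the members, the distance between the mt-CCs and the other groups is given as a description and carries no test.

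The mt-CCs came from a primary tumor of a mouse with Pdx1-Cre, LSL-K-ras G12D/+ and p53 R172H/+. The fl-CCs came from a primary tumor of a mouse with Pdx1-Cre, LSL-K-ras G12D/+ and floxed p53 (fl/+), labelled as null. All groups thus share Cre driven by the pancreatic Pdx1 promoter and the K-ras G12D allele. The fl-CCs + EV carried an empty vector, and the fl-CCs + p53 R175H carried human mutant p53, and both were grown with 0.6 mg/ml G418, which mt-CCs and fl-CCs did not receive. Each of the 4 groups had 3 arrays, described as biological triplicates. Since a single mt-CC line and a single fl-CC line were compared, the p53 allele, the animal of origin and the history of each line cannot be told apart, and the p-values refer to the spread of cultures of the same line. The R175H group shares its parent line with EV, so a member's level there was set against EV.

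Hot-spot mutants of p53, a tumor suppressor that binds DNA, have largely lost sequence-specific DNA binding and are known to act on transcription through other factors. Several of the genes below are known to be expressed from a single parental allele, from the X chromosome, or upon interferon. Others are known from mesenchymal cells or from blood cells, and are not typical of pancreatic epithelium.

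The 12 arrays had the same median of 5.59 and values between 1.71 and 14.64. Within a group, arrays correlated across all probe sets at 0.994 to 0.996, mt-CC arrays with those of other groups at 0.959 to 0.962, and arrays of the 3 groups of fl-CCs with each other at 0.983 to 0.990. Between mt-CCs and fl-CCs, 30.7% of 45037 probe sets differed at an adjusted p of 0.05 or less (limma, Benjamini-Hochberg). Of the keratins of pancreatic epithelium, Krt18 (13.40 in mt-CCs and 13.75 in fl-CCs) and Krt19 (13.68 and 13.66) were high in both lines, whereas Krt7 was at 8.52 against 12.96 and Krt20 at 4.58 against 10.53. Epcam (6.88 and 9.78) and Cdh1 (10.01 and 12.25) were lower in mt-CCs, as were 28 of 43 epithelial markers measured, while 5 were higher. Their summed level, on the log2 scale, lay between 15.41 and 15.50 in the mt-CC arrays and between 16.37 and 16.38 in the fl-CC arrays. Of 20 fibroblast markers, 7 were higher and 2 lower in mt-CCs, and their summed level was 12.49 to 12.61 against 11.82 to 11.99. The 7 were Islr (7.19 against 3.49), Col1a1 (8.74 against 5.59), Pdgfra (6.95 against 4.95), Pdgfrb (7.37 against 6.11), Fbln1 (11.77 against 10.67) and, with means under 5 in both lines, Col1a2 and Dcn (4.96 against 4.53). Lum (2.71 in mt-CCs), Postn (4.04) and Fap (2.62) did not pass and had means under 5 in both lines. Of 15 leukocyte markers 1 was higher (Cd68, 7.66 against 5.75) and 1 lower, with a summed level of 10.23 to 10.36 in mt-CCs and 10.30 to 10.34 in fl-CCs, and Ptprc was at 4.23 and 4.17. Of 12 endothelial markers 1 was higher and 4 lower, with sums of 9.09 to 9.33 and 9.71 to 9.75, and Cdh5 was at 3.43 in mt-CCs. Over all genes, 18.3% were higher and 17.7% lower in mt-CCs. The part of the epithelial and fibroblast differences in the levels of the 44 genes was not tested.

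Across the 60 member probe sets, the mean in mt-CCs lay between 8.03 and 11.46, with a median of 8.90. The medians in the other groups were 3.74 in fl-CCs, 3.64 in fl-CCs + EV and 3.87 in fl-CCs + p53 R175H. The lowest mt-CC array stood 2.81 to 7.83 above the highest of the other 9 arrays, with a median gap of 4.77. No single mt-CC array of a member fell under 7.74, and no other array rose above 5.34. In 55 probe sets every mt-CC array was at 8 or above, and in 51 every other array was under 5. The median SD over 3 arrays was 0.141 in mt-CCs, against 0.094 for all probe sets at 8 or above there. Of the 11522 single-symbol probe sets with all 3 groups of fl-CCs under 5, 73 (0.634%) reached 8 in mt-CCs, and their median in mt-CCs was 3.53. The limits turned around (fl-CC groups at 8 or above and mt-CCs under 5) were met by 53 probe sets of 43 genes.

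**Figure D1:**
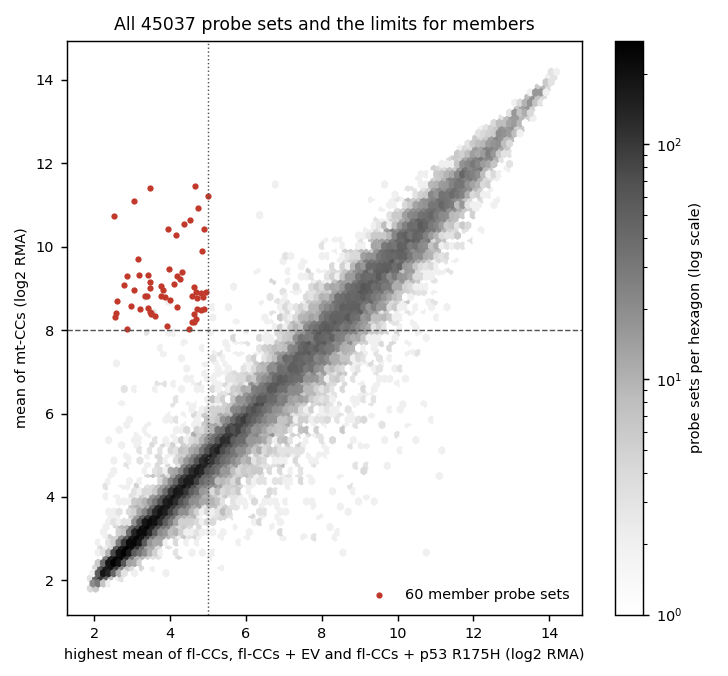
Mean log2 RMA value of mt-CCs (vertical axis) against the highest of the means of the 3 groups of fl-CCs (horizontal axis) for 45037 probe sets, shaded by the number of probe sets per hexagon. The dashed line is the limit of 8, the dotted line the limit of 5, and the 60 red points are the members, which lie above 8 and left of 5.

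Several probe sets lay close to a limit. Car8 (8.03), Pcdh19 (8.04, its dimmer probe set) and Galnt18 (8.09) lay just inside the limit of 8, and Prrx1 (7.98), a further probe set of Gulp1 (7.97) and Pcdh7 (7.97) just outside. Tgfbr3 (4.99 in fl-CCs), Zcchc24 (4.95 in EV) and Prelid2 (4.90 in fl-CCs) lay just inside the limit of 5, and Anpep (5.05), Fgfr1 (5.05) and Pygl (5.10) just outside. The choice was repeated on 2 of the 3 replicate numbers and then read in the arrays of the number left out. Without replicate 1, 62 probe sets were chosen, and 50 of them were past both limits in the arrays left out. The counts were 54 of 62 for replicate 2 and 53 of 60 for replicate 3. The smallest gap between the mt-CC array left out and the other 3 arrays left out was 2.53, 3.24 and 3.12. The arrays left out are of the same lines and closely resemble those used. The lack of overlap therefore follows largely from the choice and is no independent support for it.

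**Figure D2:**
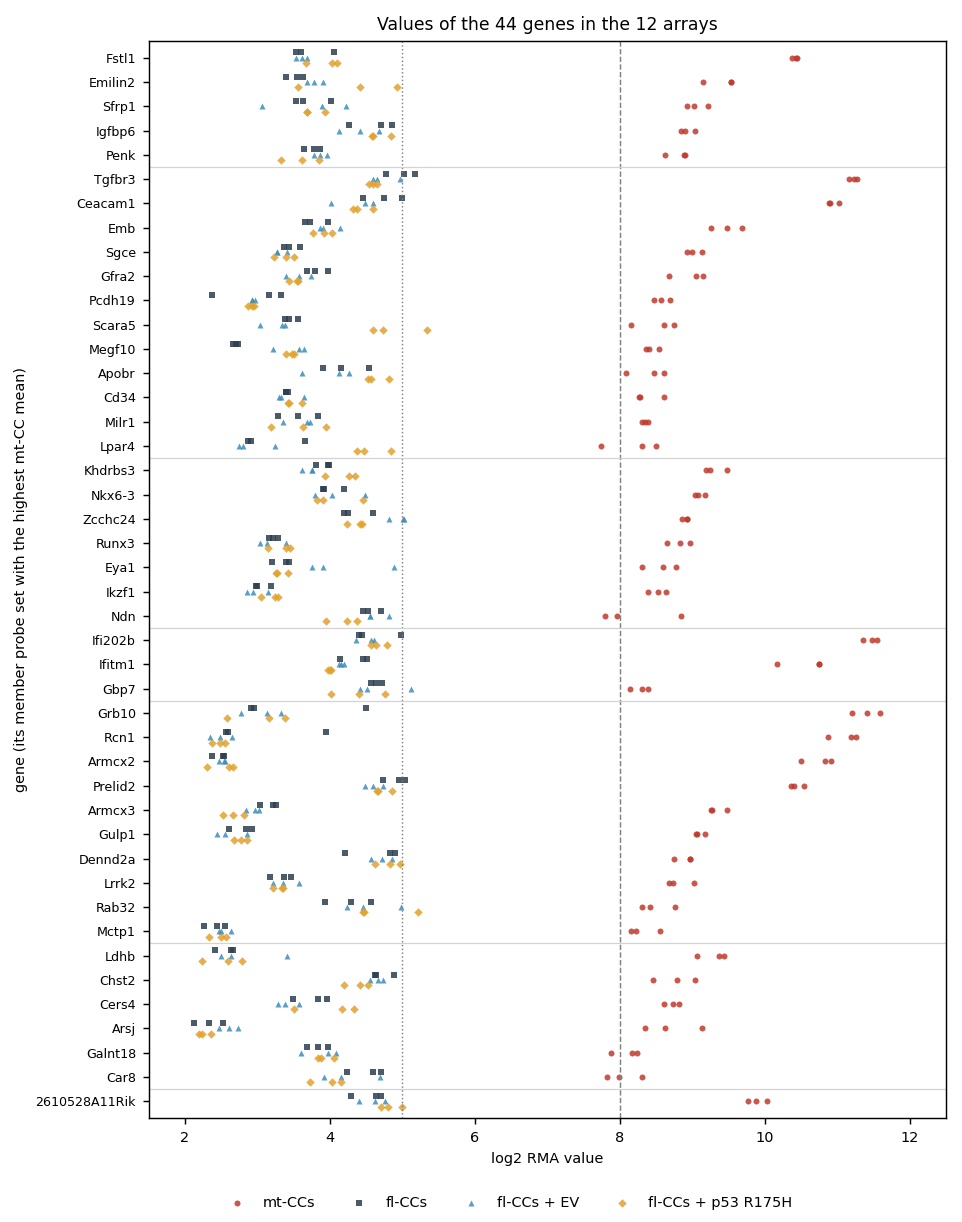
Log2 RMA values of the 44 genes in the 12 arrays, each gene by its member probe set with the highest mt-CC mean, grouped by role with grey lines between roles (secreted, receptor or surface, transcription or RNA, interferon-inducible, mitochondria with signaling and trafficking, enzymes, and 1 uncharacterized gene). Red circles (mt-CCs) lie to the right of all other symbols in every gene, and the dashed and dotted lines are at 8 and 5.

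In the values below, which are those of member probe sets, the arrays of each group are given as replicates 1, 2 and 3, and values under 5 are taken as near background, so that the distance of mt-CCs from 5 is the least by which they differed from the other groups. Of the 60 probe sets, 11 are of the s_at or x_at class, which can bind transcripts of related genes, and Armcx2, Ifi202b and Ndn are members only through such probe sets. Levels of different probe sets also differ by probe response, so their order carries no meaning here. Among bright members, Ifi202b had a mean of 11.46 ± 0.10 (SD, n = 3), Grb10 11.40 ± 0.19, Tgfbr3 11.22 ± 0.06, Rcn1 11.11 ± 0.21 and Ceacam1 10.93 ± 0.08, which is at least 5.93 log2 units above 5 in each of them.

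Secreted members were 5 in number. Fstl1, a secreted glycoprotein of the follistatin family that is typical of mesenchymal cells, read 10.43, 10.44 and 10.37 in mt-CCs, 4.05, 3.6 and 3.53 in fl-CCs, 3.68, 3.61 and 3.53 with EV and 3.67, 4.03 and 4.1 with R175H. Its mt-CC arrays were nearly equal (SD 0.03), and the lowest of them stood 6.28 above the highest other array. Emilin2, an elastic-fiber glycoprotein, read 9.14, 9.53 and 9.53 in mt-CCs, 3.4, 3.54 and 3.63 in fl-CCs, 3.69, 3.78 and 3.91 with EV and 4.93, 4.41 and 3.56 with R175H. The R175H arrays of Emilin2 were spread widely, with the first close to 5. Igfbp6, a binding protein with a preference for insulin-like growth factor 2, read 9.03, 8.89 and 8.84 in mt-CCs, 4.27, 4.86 and 4.7 in fl-CCs, 4.41, 4.13 and 4.68 with EV and 4.84, 4.59 and 4.58 with R175H. Sfrp1, a secreted antagonist of Wnt ligands, had a pair of member probe sets. The brighter read 8.93, 9.22 and 9.02 in mt-CCs, 3.63, 4.02 and 3.53 in fl-CCs, 3.89, 3.07 and 4.22 with EV and 3.68, 3.93 and 3.69 with R175H, and the other read 9.0, 9.04 and 9.06 in mt-CCs, 4.71, 4.51 and 4.67 in fl-CCs, 4.73, 4.51 and 4.5 with EV and 4.75, 4.63 and 4.35 with R175H. Penk, the precursor of the enkephalin peptides, reached 8.88, 8.62 and 8.9 in mt-CCs and stayed between 3.33 and 3.96 in the other 9 arrays.

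Receptors and surface proteins made up the largest role, with 12 genes. Tgfbr3, or betaglycan, the co-receptor that presents TGF-beta ligands to their signaling receptors, read 11.16, 11.27 and 11.23 in mt-CCs, 4.77, 5.17 and 5.02 in fl-CCs, 4.65, 4.96 and 4.6 with EV and 4.54, 4.59 and 4.65 with R175H. The other member probe set of Tgfbr3 read 10.5, 10.69 and 10.72 in mt-CCs, 4.65, 3.95 and 4.43 in fl-CCs, 4.86, 4.65 and 4.1 with EV and 4.4, 4.45 and 4.6 with R175H. In both, the mt-CC arrays lay at least 5.64 above all others. Ceacam1, an adhesion molecule of the immunoglobulin superfamily, had 6 member probe sets with mt-CC means between 8.41 and 10.93, of which the brightest read 11.02, 10.89 and 10.88 in mt-CCs, 4.74, 4.45 and 4.99 in fl-CCs, 4.01, 4.59 and 4.49 with EV and 4.32, 4.37 and 4.6 with R175H. Of these 6, 5 are of the s_at or x_at class, and the part of related transcripts in their signal was not tested. Emb, or embigin, which escorts lactate transporters to the cell surface, read 9.68, 9.26 and 9.47 in mt-CCs, 3.72, 3.97 and 3.66 in fl-CCs, 4.14, 3.91 and 3.86 with EV and 3.77, 3.92 and 4.03 with R175H. Sgce, or epsilon-sarcoglycan, a paternally expressed imprinted gene, read 8.99, 8.92 and 9.13 in mt-CCs, 3.59, 3.37 and 3.43 in fl-CCs, 3.27, 3.27 and 3.41 with EV and 3.51, 3.39 and 3.23 with R175H. Pcdh19, an X-linked protocadherin, read 8.47, 8.69 and 8.57 in mt-CCs, 3.16, 3.33 and 2.37 in fl-CCs, 2.93, 2.97 and 2.93 with EV and 2.92, 2.95 and 2.87 with R175H. Its dimmer member probe set read 8.05, 7.96 and 8.1 in mt-CCs, 3.19, 2.53 and 2.86 in fl-CCs, 2.57, 2.71 and 2.64 with EV and 2.87, 2.68 and 2.57 with R175H. The lack of overlap between mt-CCs and the other groups in these surface genes follows largely from the limits that chose them.

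Gfra2, the neurturin receptor that acts with RET, reached 8.67, 9.14 and 9.05 in mt-CCs at its member probe set, which stayed between 3.39 and 3.98 in the other 9 arrays. A further probe set of Gfra2 was above 8 in all 4 groups. Scara5, a scavenger receptor that takes up ferritin, reached 8.6, 8.15 and 8.74 in mt-CCs, and Lpar4, a G protein-coupled receptor of lysophosphatidic acid, reached 7.74, 8.5 and 8.31. The first mt-CC array of Lpar4 lay under 8. Megf10, a phagocytic receptor, reached 8.54, 8.36 and 8.4 and stayed between 2.66 and 3.64 in the other 9 arrays. Apobr, a macrophage receptor of triglyceride-rich lipoproteins, reached 8.61, 8.08 and 8.47 and stayed between 3.61 and 4.81 in the other 9 arrays. Cd34, a sialomucin of blood progenitors and endothelium, reached 8.26, 8.61 and 8.28 and stayed between 3.3 and 3.64 in the other 9 arrays. Milr1, an inhibitory immunoglobulin-like receptor known from mast cells, reached 8.39, 8.3 and 8.34 and stayed between 3.19 and 3.95 in the other 9 arrays. Milr1 is thus known from blood cells, and Cd34 from blood progenitors and endothelium. Of the leukocyte markers, Ptprc (4.23) and Tyrobp (3.84) had means under 5 in mt-CCs, whereas Cd68 (7.66) and Cd14 (9.67, against 9.94 in fl-CCs) did not. The part of blood or endothelial cells in the levels of Cd34 and Milr1 was not tested.

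Of 7 genes of transcription and RNA, Runx3 and Ikzf1 are best known from lymphocytes. Runx3, a Runt-domain transcription factor, read 8.65, 8.83 and 8.97 in mt-CCs, 3.22, 3.29 and 3.16 in fl-CCs, 3.13, 3.03 and 3.39 with EV and 3.45, 3.39 and 3.15 with R175H. Ikzf1, which encodes the zinc finger factor Ikaros, read 8.39, 8.52 and 8.63 in mt-CCs, 2.98, 3.19 and 3.0 in fl-CCs, 3.15, 2.94 and 2.86 with EV and 3.05, 3.24 and 3.29 with R175H. At these member probe sets the highest array outside the mt-CCs was 3.45 for Runx3 and 3.29 for Ikzf1. A further probe set of Runx3 lay at one level in all groups (5.80 in mt-CCs and 5.84 in fl-CCs), and one of Ikzf1 was at 6.73 in mt-CCs and 4.62 in fl-CCs. Ndn, or necdin, a paternally expressed growth suppressor, read 8.84, 7.79 and 7.96 in mt-CCs, 4.7, 4.52 and 4.46 in fl-CCs, 4.55, 4.55 and 4.82 with EV and 4.37, 4.23 and 3.94 with R175H. Replicate 1 of the mt-CCs stood above the other arrays of Ndn, and its SD of 0.57 was the largest of any member in mt-CCs. Zcchc24, a zinc finger protein, read 8.93, 8.86 and 8.93 in mt-CCs, 4.25, 4.59 and 4.2 in fl-CCs, 5.02, 5.01 and 4.81 with EV and 4.41, 4.44 and 4.24 with R175H. Nkx6-3, a homeodomain factor of stomach epithelium, reached 9.08, 9.04 and 9.17 and stayed between 3.79 and 4.49 in the other 9 arrays. Eya1, a phosphatase and co-activator of homeobox factors, reached 8.59, 8.77 and 8.3 and stayed between 3.2 and 4.88 in the other 9 arrays, and Khdrbs3, a regulator of splicing, reached 9.47, 9.24 and 9.19 and stayed between 3.62 and 4.34 in the other 9 arrays.

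Interferon-inducible members were 3 in number. Ifi202b, a p200-family gene whose protein binds DNA in the cytosol, read 11.35, 11.48 and 11.55 in mt-CCs, 4.98, 4.4 and 4.44 in fl-CCs, 4.61, 4.36 and 4.56 with EV and 4.57, 4.79 and 4.64 with R175H. All 3 mt-CC arrays were above 11. Ifitm1, a membrane protein that restricts virus entry, read 10.16, 10.75 and 10.75 in mt-CCs, 4.51, 4.14 and 4.46 in fl-CCs, 4.2, 4.16 and 4.13 with EV and 4.0, 3.97 and 4.01 with R175H. Gbp7, a guanylate-binding GTPase, read 8.39, 8.3 and 8.14 in mt-CCs, 4.57, 4.64 and 4.72 in fl-CCs, 5.12, 4.42 and 4.51 with EV and 4.4, 4.02 and 4.76 with R175H. One EV array of Gbp7 was above 5, and the mt-CC arrays were all above 8.

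Mitochondrial, signaling and trafficking genes were 10 in number. Armcx2 and Armcx3 encode armadillo-repeat proteins of the X chromosome, of which Armcx3 is known on the outer membrane of mitochondria. Armcx2 read 10.49, 10.91 and 10.82 in mt-CCs, 2.52, 2.37 and 2.54 in fl-CCs, 2.47, 2.55 and 2.54 with EV and 2.66, 2.31 and 2.61 with R175H, so that the lowest mt-CC array stood 7.83 above the highest other array. Armcx3 read 9.47, 9.27 and 9.25 in mt-CCs, 3.22, 3.04 and 3.26 in fl-CCs, 2.84, 2.97 and 3.02 with EV and 2.53, 2.67 and 2.81 with R175H, and its other member probe set read 8.95, 8.93 and 9.0 in mt-CCs, 3.0, 3.06 and 3.06 in fl-CCs, 2.84, 2.76 and 2.73 with EV and 3.04, 3.12 and 2.98 with R175H. Grb10, an imprinted adaptor that dampens insulin receptor signaling, read 11.4, 11.58 and 11.2 in mt-CCs, 4.5, 2.91 and 2.95 in fl-CCs, 3.13, 3.33 and 2.78 with EV and 3.16, 2.58 and 3.38 with R175H. Rcn1, which binds calcium in the endoplasmic reticulum, read 10.87, 11.19 and 11.26 in mt-CCs, 3.95, 2.59 and 2.57 in fl-CCs, 2.49, 2.35 and 2.65 with EV and 2.55, 2.49 and 2.37 with R175H. In both Grb10 and Rcn1 replicate 1 of the fl-CCs stood above the other fl-CC arrays by more than 1, and still below 5. No other array of a member in the groups of fl-CCs did so, and over the 60 probe sets replicate 1 was the highest fl-CC array in 24 (40%), beside 34.8% of 11462 other probe sets under 5 in these groups. In the 4 member probe sets at 11 or above in mt-CCs, replicate 1 was the highest fl-CC array in 3 (75%), with a median of 0.97 above the mean of the other 2 fl-CC arrays. Grb10 and Rcn1 are among these 4, so this count largely repeats the values above. In Tgfbr3, also among the 4, replicate 1 was the lowest fl-CC array (4.77, against 5.17 and 5.02). Replicate 1 was the highest fl-CC array at the brightest probe set of Fstl1 (6.24, against 3.49 and 4.55). Whether RNA of another culture had a part in that array was not tested. Gulp1, an adaptor for engulfment receptors, read 9.05, 9.17 and 9.06 in mt-CCs, 2.92, 2.85 and 2.61 in fl-CCs, 2.56, 2.86 and 2.44 with EV and 2.77, 2.86 and 2.68 with R175H. Prelid2, a protein with the PRELI domain known from mitochondrial lipid transfer, read 10.54, 10.4 and 10.36 in mt-CCs, 4.73, 4.95 and 5.03 in fl-CCs, 4.73, 4.6 and 4.49 with EV and 4.65, 4.67 and 4.85 with R175H. Mctp1, a membrane protein with calcium-binding C2 domains, read 8.22, 8.15 and 8.55 in mt-CCs, 2.45, 2.55 and 2.27 in fl-CCs, 2.64, 2.5 and 2.47 with EV and 2.5, 2.34 and 2.57 with R175H. Lrrk2, a kinase known from inherited Parkinson disease in humans, read 8.67, 9.02 and 8.73 in mt-CCs, 3.47, 3.18 and 3.37 in fl-CCs, 3.58, 3.21 and 3.36 with EV and 3.35, 3.34 and 3.22 with R175H. Rab32, a small GTPase of vesicle traffic to lysosome-related organelles, reached 8.31, 8.76 and 8.42 and stayed between 3.93 and 5.22 in the other 9 arrays. Dennd2a, an activator of Rab GTPases, reached 8.97, 8.74 and 8.97 and stayed between 4.21 and 4.97 in the other 9 arrays. Their lowest mt-CC arrays stood 3.09 and 3.78 above the highest other array.

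Enzymes made up 6 of the genes. Ldhb, the heart-type subunit of lactate dehydrogenase, had 3 member probe sets, of which the brightest read 9.36, 9.06 and 9.44 in mt-CCs, 2.64, 2.42 and 2.67 in fl-CCs, 3.41, 2.64 and 2.5 with EV and 2.79, 2.24 and 2.59 with R175H. The other members of Ldhb had means of 8.80 and 8.83 in mt-CCs and, closer to the limit, 4.85 and 4.53 in fl-CCs. A further probe set of Ldhb was at 8.15 in mt-CCs, 5.63 in fl-CCs, 5.68 in EV and 5.68 in R175H. Arsj, an arylsulfatase, read 8.35, 8.62 and 9.13 in mt-CCs, 2.52, 2.13 and 2.34 in fl-CCs, 2.73, 2.47 and 2.61 with EV and 2.2, 2.23 and 2.36 with R175H. Galnt18, a transferase of the mucin-type O-glycosylation family, read 7.87, 8.17 and 8.24 in mt-CCs, 3.69, 3.98 and 3.84 in fl-CCs, 4.08, 3.98 and 3.6 with EV and 3.88, 4.06 and 3.84 with R175H. Car8, a carbonic anhydrase-related protein without catalytic activity, read 8.31, 7.98 and 7.82 in mt-CCs, 4.59, 4.23 and 4.7 in fl-CCs, 4.69, 3.92 and 4.16 with EV and 4.15, 4.03 and 3.72 with R175H. Galnt18 and Car8 had mt-CC arrays on either side of 8. The member probe set of Chst2, a sulfotransferase of N-acetylglucosamine, reached 9.04, 8.45 and 8.79 and stayed between 4.19 and 4.88 in the other 9 arrays. That of Cers4, a ceramide synthase, reached 8.73, 8.81 and 8.6 and stayed between 3.29 and 4.33 in the other 9 arrays. Further probe sets of both genes were above 5 in fl-CCs (5.46 for Chst2 and 5.61 for Cers4). The gene 2610528A11Rik, for which no role is given here, reached 9.88, 9.76 and 10.03 and stayed between 4.29 and 4.99 in the other 9 arrays.

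Promoter windows from RefSeq (GRCm38.p6), with 250 bases before and 50 after the annotated start, were found for 29 of the 44 genes. A window was called CpG-rich with a GC content of 50% or more and a ratio of observed to expected CG pairs of 0.6 or more. By this definition 12 of 29 genes (41.4%) had a CpG-rich window, beside 57.3% of 14368 measured genes, 82.3% of genes that were at 8 or above in all 4 groups and 24% of genes under 5 in all 4 groups. The letters TATAAA, on either strand, occurred in the windows of 4 members (13.8%) and of 11.5% of all genes. Windows of both kinds are shown for Armcx2 and Ifi202b, at a gap of 7.83 and an mt-CC mean of 11.46, and for the neighbors Ikzf1 and Grb10. They are written 5′ to 3′ on the strand of the gene, with CG pairs in capitals.
Armcx2 (chrX:134809172-134809471, minus strand): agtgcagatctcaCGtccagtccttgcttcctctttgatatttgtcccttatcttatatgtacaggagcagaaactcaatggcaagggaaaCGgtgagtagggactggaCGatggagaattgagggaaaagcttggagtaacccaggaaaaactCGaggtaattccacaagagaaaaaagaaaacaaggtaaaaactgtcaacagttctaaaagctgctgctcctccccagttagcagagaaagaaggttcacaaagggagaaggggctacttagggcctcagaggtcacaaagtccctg
Ifi202b (chr1:173982795-173983094, minus strand): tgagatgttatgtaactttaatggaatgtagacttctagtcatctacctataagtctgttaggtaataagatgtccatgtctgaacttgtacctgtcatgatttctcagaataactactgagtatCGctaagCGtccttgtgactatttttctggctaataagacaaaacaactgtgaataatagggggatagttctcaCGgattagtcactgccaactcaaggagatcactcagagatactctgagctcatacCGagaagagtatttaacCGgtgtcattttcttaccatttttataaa
Ikzf1 (chr11:11685675-11685974, plus strand): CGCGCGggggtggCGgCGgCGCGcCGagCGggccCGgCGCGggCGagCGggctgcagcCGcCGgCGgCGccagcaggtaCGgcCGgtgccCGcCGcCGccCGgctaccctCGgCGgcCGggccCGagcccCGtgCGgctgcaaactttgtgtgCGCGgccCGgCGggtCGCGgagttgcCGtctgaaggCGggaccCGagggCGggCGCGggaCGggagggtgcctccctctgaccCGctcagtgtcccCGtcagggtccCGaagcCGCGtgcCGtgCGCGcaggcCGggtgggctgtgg
Grb10 (chr11:12037371-12037670, minus strand): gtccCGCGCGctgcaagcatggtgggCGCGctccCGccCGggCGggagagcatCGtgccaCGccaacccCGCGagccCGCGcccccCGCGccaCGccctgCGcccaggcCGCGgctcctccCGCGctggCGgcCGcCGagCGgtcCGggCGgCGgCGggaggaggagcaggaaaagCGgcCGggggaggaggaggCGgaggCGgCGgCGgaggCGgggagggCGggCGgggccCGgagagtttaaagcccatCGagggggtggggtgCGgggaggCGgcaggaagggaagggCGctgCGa
The window of Armcx2 held 4 CG pairs and that of Ifi202b 5, whereas that of Ikzf1 held 52 and that of Grb10 45. Ikzf1 and Grb10 each have another window with fewer CG pairs (2 and 9). The members thus had both CpG-poor and CpG-rich windows, and which start was used was not measured.

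Further probe sets of the same genes were read to see how far the pattern belongs to the gene and not to a probe set. They were 41 in number and came from 25 of the 44 genes. Of these, 17 were under 5 in all groups of fl-CCs and between 5 and 8 in mt-CCs, so they kept the order at a lower level. Examples are a further probe set of Sfrp1 (7.93 in mt-CCs and at most 3.56 elsewhere), of Pcdh19 (7.80 and at most 3.53) and of Armcx2 (7.90 and at most 3.45). Another 12 were under 5 in all groups, among them Rcn1 (2.38 in mt-CCs) and Sgce (3.09). The remaining 12, of 11 genes, were at 5 or above in at least 1 group of fl-CCs.

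For these 11 genes, the description as on only in mt-CCs depended on the probe set. A further probe set of Gfra2 was high everywhere, at 8.76 in mt-CCs, 8.42 in fl-CCs, 8.40 in EV and 8.44 in R175H. One of Runx3 was at 5.80, 5.84, 5.64 and 5.95 in the same order, and that of Chst2 at 5.66, 5.46, 5.39 and 5.41. In Gfra2 and Chst2 mt-CCs lay less than 1 above the highest other group, and in Runx3 they lay below it. In the other 8 genes the further probe sets at 5 or above were also highest in mt-CCs. The brightest probe set of Fstl1 stood at 12.86 in mt-CCs, 4.76 in fl-CCs, 4.37 in EV and 6.61 in R175H. Cers4 had 11.45, 5.61, 4.99 and 6.80, Zcchc24 had 10.16, 5.73, 6.29 and 5.81, and Car8 had 9.74, 5.55, 6.0 and 5.47. By these probe sets Cers4, Zcchc24 and Car8 were above 5 in fl-CCs. So were Ldhb (8.15 in mt-CCs and 5.63 in fl-CCs), Ceacam1 (8.52 and 5.28) and Gbp7 (8.14 and 5.13) by theirs. That of Grb10 was at 7.89 in mt-CCs, 4.92 in fl-CCs and 5.04 in EV. Of 29 further probe sets at 5 or above in at least 1 group, 26 had an mt-CC mean at least 1 above the highest other mean. With every probe set required to meet the limits, 19 genes remained, 17 of them with a single probe set on the array, and Armcx3 and Tgfbr3 with 2.

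**Figure D3:**
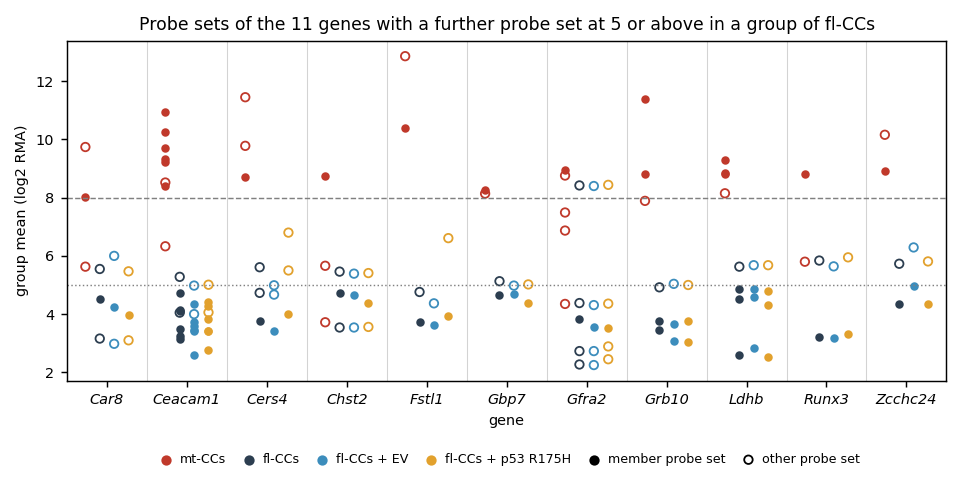
Group means (log2 RMA) of member probe sets (filled circles) and other probe sets (open circles) of the 11 genes that have a further probe set at 5 or above in a group of fl-CCs, colored by group, with lines at 8 and 5. The open circles of Gfra2 near 8.4 and of Runx3 near 5.8 lie at one level in all 4 groups, whereas the red open circles of Fstl1, Cers4, Zcchc24 and Car8 lie above the others.

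Outside mt-CCs, the members were compared between fl-CCs + p53 R175H and EV, which asks whether human mutant p53 in the null line moved them. The order of these groups was not used in choosing the members, although all 3 means had to lie under 5, which limits any rise and holds the comparison to levels near background. Of the 60 probe sets, 10 of 9 genes differed (7 higher and 3 lower with R175H), that is 16.7%, and 12 passed an unadjusted p of 0.05. Over all 45037 probe sets, 20.3% differed, with 10.2% higher and 10.2% lower, and among the 18206 under 5 in these 3 groups 3.91% differed. The median difference of the members was 0.01 and that of all probe sets -0.013. All 60 means with R175H were under 5, as the choice required.

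Scara5 and Lpar4 were higher with R175H at their member probe sets, although still near background. Scara5 read 5.34, 4.73 and 4.59 with R175H, 3.38, 3.03 and 3.34 with EV and 3.56, 3.38 and 3.43 in fl-CCs. Its R175H and EV arrays did not overlap, as in 36.9% of all probe sets, in either direction. The R175H arrays lay above all arrays of EV and fl-CCs, by 1.64 ± 0.20 (SE) over EV (adjusted p = 0.000106, limma). The mt-CC arrays of Scara5, between 8.15 and 8.74, were well above these. Lpar4 read 4.47, 4.38 and 4.84 with R175H, 2.80, 3.24 and 2.75 with EV and 2.87, 2.91 and 3.66 in fl-CCs. It differed from EV by 1.63 ± 0.24 (adjusted p = 0.000545), again without overlap. Zcchc24 fell by 0.58 (SE 0.11) with R175H (adjusted p = 0.00324). Its EV arrays (5.02, 5.01 and 4.81) were the highest of the 3 groups, and EV also lay 0.60 ± 0.11 above fl-CCs (adjusted p = 0.0047). The calls for Scara5, Lpar4 and Zcchc24 held under 11 alternative fits. A fit limited to probe sets with a group mean of 5 or more is not counted among them, since members pass that limit through the mt-CCs.

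Each of the other calls was lost in 3 to 8 of the 11 alternative fits. Eya1 was lower with R175H than with EV in both of its member probe sets, with differences of -0.72 ± 0.19 (adjusted p = 0.0165) and -0.86 ± 0.24 (adjusted p = 0.0224). In the latter, EV replicate 1 was at 4.88 and the others at 3.90 and 3.76, and without that array the difference was -0.51 (adjusted p = 0.0304). Khdrbs3 was higher with R175H by 0.47 ± 0.12 (adjusted p = 0.0168), Apobr by 0.63 ± 0.20 (adjusted p = 0.047), Ceacam1 by 0.55 ± 0.17 in 1 of 6 probe sets (adjusted p = 0.0459) and Cers4 by 0.59 ± 0.19 (adjusted p = 0.0484) with overlapping arrays. A probe set of Armcx3 was higher by 0.27 ± 0.08 (adjusted p = 0.0253), whereas the other differed by -0.28 (adjusted p = 0.0912), so Armcx3 has no settled direction.

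The 41 further probe sets of member genes are those that failed the limits, so they were not held under 5. The brightest probe set of Fstl1 and a dimmer one of Cers4 failed only because their R175H means were at 5 or above. These entered the comparison through a high level with R175H, so their rise over EV follows in part from the choice. The brightest probe set of Cers4 failed in fl-CCs as well (5.61). Of the 41, 5 of 4 genes differed between R175H and EV (12.2%, 4 higher and 1 lower), and 6 passed an unadjusted p of 0.05. The brightest probe set of Fstl1 read 6.33, 6.6 and 6.91 with R175H and 3.95, 4.48 and 4.68 with EV, a difference of 2.24 ± 0.50 (adjusted p = 0.00723). Its fl-CC arrays were at 6.24, 3.49 and 4.55, so replicate 1 of the untransfected line lay just under the lowest R175H array, and the mt-CC arrays were at 12.90, 12.79 and 12.88. The brightest probe set of Cers4 read 6.68, 6.92 and 6.80 with R175H and 4.83, 4.90 and 5.22 with EV, a difference of 1.82 ± 0.13 (adjusted p = 1.42e-06). The dimmer probe set of Cers4, which failed only by its R175H mean, differed by 0.83 ± 0.13 (adjusted p = 0.000764). These 3 calls held under all 11 alternative fits, and Fstl1 and Cers4 with R175H still lay 6.25 and 4.65 below their mt-CC means. A further probe set of Lpar4 differed by 0.94 ± 0.30 (adjusted p = 0.0424) and one of Zcchc24 by -0.48 ± 0.15 (adjusted p = 0.0386), in the directions of their member probe sets, and each was lost in 7 of the 11 fits.

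**Figure D4:**
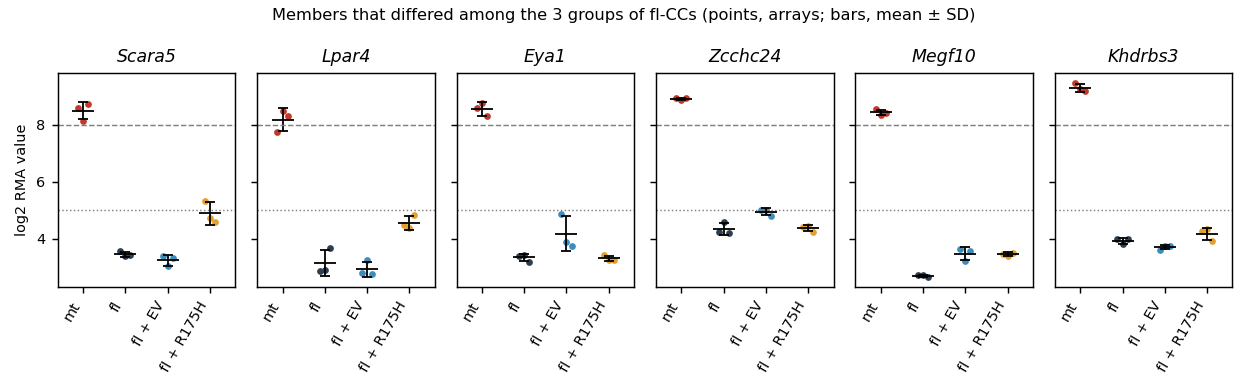
Log2 RMA values of 6 members in mt-CCs, fl-CCs, fl-CCs + EV and fl-CCs + p53 R175H; points are arrays, bars the mean ± SD (n = 3), and lines mark 8 and 5. Scara5 and Lpar4 were higher with R175H than with EV or in fl-CCs, Zcchc24 and Eya1 were highest with EV among the groups of fl-CCs, and Megf10 was lower in untransfected fl-CCs, while the mt-CC arrays lay above all of these.

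Between EV and fl-CCs, which differ by the vector and G418, 4 of 60 member probe sets differed (3 higher and 1 lower with EV), that is 6.67% beside 12.1% of all probe sets (6.45% higher and 5.66% lower) and 1.95% of those under 5 in the 3 groups. This comparison shares its EV arrays with the one above. An unadjusted p of 0.05 was passed by 10. Megf10 read 3.64, 3.22 and 3.57 with EV and 2.71, 2.74 and 2.66 in fl-CCs, a difference of 0.77 ± 0.11 (adjusted p = 0.000678), and R175H arrays (3.48, 3.40 and 3.51) were at the level of EV. Its call held in all 11 alternative fits. Zcchc24 (above) and Eya1 (0.83 ± 0.24, adjusted p = 0.0396) were also higher with EV, and a probe set of Armcx3 differed by -0.26 (adjusted p = 0.0434). The calls of Eya1 and Armcx3 were lost in 6 and 9 of the 11 fits. Of the 41 further probe sets, 2 differed between EV and fl-CCs (4.88%).

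Other genes of the members' families and classes were read from lists of related genes, each gene by its probe set with the highest mean. Of 20 measured genes of the Armcx, Bex and Tceal families, which lie together on the X chromosome, 2 are members. Of the other 18, 10 passed as higher in mt-CCs relative to fl-CCs and the other 8 did not pass (adjusted p of 0.05 or less, limma), while 18.3% of all genes were higher and 17.7% lower. Armcx1 was at 7.66 ± 0.07 (SD, n = 3) in mt-CCs and 2.66 ± 0.11 in fl-CCs, a difference of 5.0 ± 0.10 (SE), Tceal8 at 10.65 and 4.39, Bhlhb9 at 6.86 and 2.60, and Bex1 at 6.80 and 2.24 (adjusted p of 1.58e-08 or less). Armcx1, Bhlhb9 and Bex1 were thus also under 5 in fl-CCs and did not reach 8 in mt-CCs. Tceal8 was past both limits in these lines, but it is not a member, since EV or R175H was at 5 or above at this probe set. In contrast, Bex3 was high in both lines, at 11.88 and 11.70, and did not pass (adjusted p = 0.138).

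Of 36 imprinted genes measured, Ndn, Grb10 and Sgce are members. Of the other 33, 6 were higher and 9 lower in mt-CCs, beside 18.3% and 17.7% of all genes. Peg10, a paternally expressed gene beside Sgce, was at 7.31 in mt-CCs and 3.01 in fl-CCs (adjusted p = 8.31e-10). Ddc and Plagl1 went the other way, with 3.40 against 9.39 and 4.56 against 9.43. Magel2 (3.74 and 3.83) and Snrpn (4.69 and 4.63), imprinted in the same region as Ndn, had means under 5 in both lines.

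Of 49 interferon-inducible genes measured, 3 are members. Of the other 46, 23 were higher and 5 lower in mt-CCs, beside 18.3% and 17.7% of all genes. Ifitm3 was at 12.96 in mt-CCs and 8.72 in fl-CCs, a difference of 4.25 ± 0.12, and Gbp2 at 8.98 and 5.2, a difference of 3.78 ± 0.28. Ifit3 was lower, at 6.25 against 8.0, as were Oasl1, Oas1a, Mx2 and Ifi27. Ifit1 (5.19 and 4.99), Rsad2 (4.71 and 4.5) and Irf7 (5.67 and 5.40), which are classical type I interferon targets, did not pass.

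Of 52 mesenchymal genes, Fstl1 is a member, and of the other 51, 28 were higher and 6 lower in mt-CCs, with Prrx1 at 10.21 against 4.74 and Twist2 at 9.17 against 5.2. This probe set of Prrx1 is not a member, since EV or R175H was at 5 or above there. Of 55 matrix glycoprotein genes, Emilin2 and Igfbp6 are members, and of the other 53, 21 were higher and 8 lower. Of 77 growth factors and secreted antagonists, Sfrp1 is a member, and of the other 76, 30 were higher and 10 lower. Over all genes, 18.3% were higher and 17.7% lower. The median difference between mt-CCs and fl-CCs was 0.67, 0.18 and 0.14 for the non-members of these lists and -0.01 for all genes.

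On the chromosomes, 3 pairs of members lay within a few genes of each other in the RefSeq gene order. Armcx3 and Armcx2 are adjacent on X, beside Armcx6 and Armcx1, which were both higher in mt-CCs (Armcx6 at 5.55 against 4.32). Ikzf1 and Grb10 lie on chromosome 11 with 3 measured genes between them. Of these, Ddc was among the genes that were on in fl-CCs and near background in mt-CCs (3.40 against 9.39, a difference of -5.98 ± 0.09, adjusted p = 1.13e-12), while Fignl1 (8.52 and 8.81) and 1700042O10Rik (2.83 and 3.11) did not pass. Nkx6-3 and Sfrp1 lie on chromosome 8, separated by Gpat4, Gins4 and Golga7, which were at 8.79, 10.75 and 10.72 in mt-CCs and did not pass, and Ank1 on the other side of Nkx6-3 was higher (8.36 against 6.56). Of 85 nearest measured neighbors of members that are neither members nor among the genes left out by name, 24.7% were higher and 8.2% lower in mt-CCs, beside 18.3% and 17.7% of all genes. Ifitm3 beside Ifitm1 and Peg10 beside Sgce differed by over 4, and Col3a1 beside Gulp1, one of the genes left out by name, was at 9.50 against 3.48. The X chromosome held 4 members (9.09% of the 44, beside 3.42% of measured genes) and chromosome 7 held 5 (11.4% beside 7.84%). Chromosomes 12 and 19, with 3.45% and 3.38% of measured genes, held none.

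**Figure D5:**
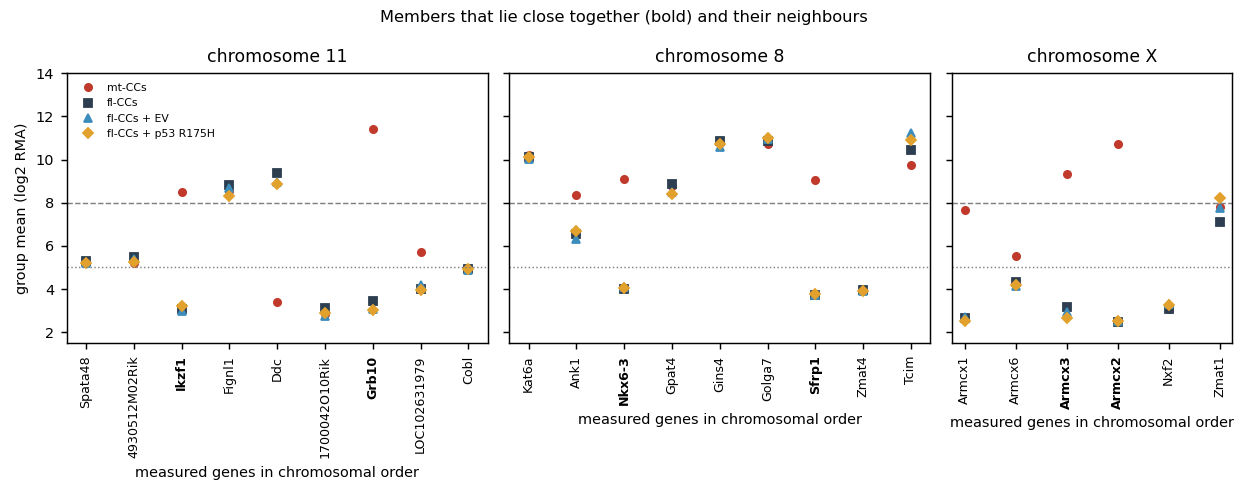
Group means (log2 RMA) of measured genes in chromosomal order around the 3 pairs of members that lie close together (members in bold), each gene by its member probe set or its probe set with the highest mean, with lines at 8 and 5. Ddc, between Ikzf1 and Grb10, is low in mt-CCs and near 9 in the groups of fl-CCs, and the genes between Nkx6-3 and Sfrp1 lie at one level in all 4 groups.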

How the data were processed

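Total RNA of 12 cultures was converted to cDNA, labelled with biotin and hybridized to Affymetrix mouse arrays. The authors checked the arrays with the affy package and normalized them by RMA, and the deposited values are log2 RMA values per probe set. The table names no genome build, so no position of a probe set is given. From these values, 64 control probe sets were left out, and limma 3.58.1 (R 4.3.3) was fitted to the 4 group means over all 12 arrays, with Benjamini-Hochberg adjustment over 45037 probe sets and a threshold of 0.05 as in the methods, which name Partek for this step. The fit was tested on simulated data. Genes were named from the platform annotation (932 probe sets with several symbols and 9160 with none were not used to choose members), and promoter windows and gene order came from RefSeq. The p53 gene itself was not analysed here. The members and the 21 lists of related genes (839 genes, 775 measured), written from general knowledge, were chosen with earlier results of these data known. Every member could be named. Array values were given for the 20 genes with the largest gap between mt-CCs and the other arrays, for members on a list and for the 3 nearest to each limit, and for others as the text needed. Further probe sets of the members were tested after their levels had been seen. Replicate numbers were not used to pair the samples in the main fit, since deviations of equally numbered arrays from their group means correlated at -0.09 to 0.058. Such correlations cannot show whether equally numbered cultures were handled together. The only measure of precision is the spread of 3 arrays in a group.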

Additional observations from a re-analysis of the deposited data

How the results depend on the processing

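The number of members followed the limits. With 7.5 in place of 8 for mt-CCs, 67 genes met them, and with 9, 26 probe sets of 19 genes. With 4.5 in place of 5 for the other groups, 39 probe sets of 29 genes met them. With every probe set of a gene required to meet the limits, 19 genes remained. Other choices kept the counts within 1.5 times of 60 probe sets and 44 genes, among them repeated quantile normalization and centring of the arrays (60 and 44 in both) and leaving out arrays (60 to 62 and 43 to 47). Alternatives chosen after seeing the data gave 41 probe sets of 35 genes for probe sets without a letter before _at, and 33 genes for those with no other probe set at 5 or above in the fl-CC groups.

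Of the members called between R175H and EV, 6 were called with only the 2 groups in the fit and 6 with an unmoderated linear model, and between 4 and 8 when 1 array was left out (4 without R175H replicate 2, 5 without EV replicate 1 or 2, and 6 without R175H replicate 1). Between EV and fl-CCs, 2 were called with only the 2 groups in the fit and between 2 and 4 when 1 array was left out (2 without EV replicate 1, fl-CC replicate 2 or fl-CC replicate 3). With the replicate number as a block, 8 and 3 members were called. Over all probe sets, the block gave 8527 calls for R175H against EV and 4774 for EV against fl-CCs, beside 9163 and 5452. The cause of the lower counts was not tested, beyond the smaller number of arrays or degrees of freedom. None of the 21 calls of probe sets of member genes between R175H and EV or between EV and fl-CCs reversed in the alternative fits. Differences of single genes between mt-CCs and fl-CCs were not refitted.

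A design with 3 arrays of 1 line in each group limits every statement to these lines, and values under 5 lie where the array measures differences poorly.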
